A study of Sus scrofa with 3 samples.

Results

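VIL1, ELF3, SLC34A2, SPINK5 and SPP1 are genes best known from epithelial tissues, the cell sheets that line ducts, gut, airways and skin. They were taken by name and matched by Ensembl gene ID, 5 of the 25322 gene IDs counted. All 5 passed the expression filter, which kept the 13228 IDs that reached 1 CPM of the unscaled library total in any library. For levels, CPM is counts per the TMM-scaled library total and is not corrected for gene length, so levels are compared within a gene only. The IDs are ENSSSCG00000016196 (VIL1), ENSSSCG00000010922 (ELF3), ENSSSCG00000008758 (SLC34A2), ENSSSCG00000014422 (SPINK5) and ENSSSCG00000009216 (SPP1). The members were chosen because earlier work on these libraries had shown them to differ between breeds, so the contrasts of the 5 genes below are descriptions and support nothing by themselves.

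The samples are liver RNA of 3 male pigs at postnatal day 90, sequenced as 1 library for each of an Enshi black pig, a Chinese wild boar and a Large White pig. Enshi black is a Chinese local breed, and Large White is a European commercial breed. The labels name no treatment, and breed, animal and library cannot be told apart. There was no replicate and hence no test across animals.

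In a liver the epithelium is of 2 main kinds, the hepatocytes and the cholangiocytes that line the bile ducts. Villin (VIL1) bundles the actin of microvilli on bile canaliculi, bile ducts and gut, and ELF3 is an ETS family transcription factor of epithelial cells that inflammatory signals induce. SLC34A2 is the sodium-coupled phosphate transporter of small intestine and lung, SPINK5 encodes LEKTI, an inhibitor of the kallikrein proteases of squamous epithelium, and SPP1 encodes osteopontin, a secreted integrin ligand made by cholangiocytes, macrophages and other cells.

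The gene tables held 20654571 counts for Enshi black, 20215871 for Chinese wild boar and 19982627 for Large White. A single count was worth 0.0463 to 0.0512 CPM. For a library with no count the floor was set at 3 counts, or 0.139 to 0.154 CPM. Intervals in parentheses are 95% exact Poisson intervals for levels and 95% exact conditional binomial intervals for folds, with no allowance for variation between animals. The size rule used throughout asks that the whole interval of a fold lie beyond 2-fold, so its bound closest to 1 decides, and a gene that meets it is said to pass. Hepatocyte genes were abundant in every library, with albumin (ALB) at 66508 CPM in Enshi black, 53648 in Chinese wild boar and 25310 in Large White.

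Across the 5 genes no common direction was seen. Between Enshi black and Large White, 1 member passed as higher and 2 as lower, where 4.69% and 8.39% of all expressed genes did (13.1% in either direction). For Chinese wild boar over Large White, 1 passed as higher and 3 as lower, against 2.96% and 3.74% of expressed genes (6.7% in either direction). For Enshi black over Chinese wild boar, 3 passed as higher and 1 as lower, against 4.03% and 7.1% (11.1% in either direction). These contrasts chose the genes, so nothing is read from the shares.

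**Figure D1:**
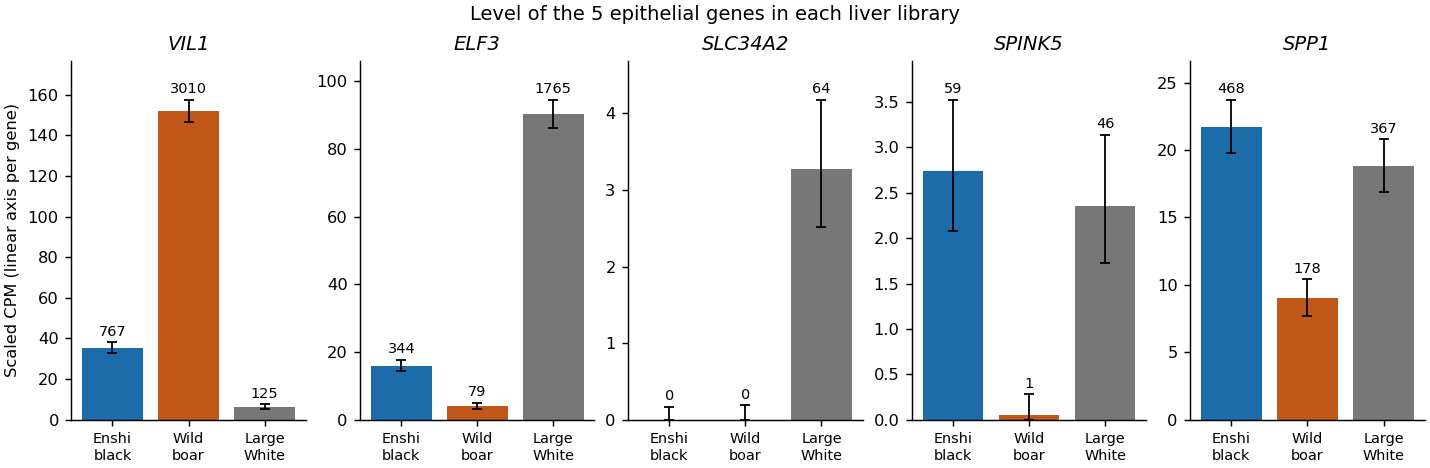
Scaled CPM of each gene (vertical axis, linear, own scale per gene) in the Enshi black, Chinese wild boar and Large White libraries; bars are the level, whiskers the 95% exact Poisson interval, and the number over each bar the raw count. VIL1 peaked at 3010 counts in Chinese wild boar, ELF3 at 1765 in Large White, and SLC34A2 was counted in Large White alone, 64 times.

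VIL1 was counted 767 times in Enshi black, 3010 times in Chinese wild boar and 125 times in Large White. The scaled levels were 35.5 CPM (33.1 to 38.1), 152 CPM (147 to 158) and 6.40 CPM (5.32 to 7.62) in the same order. Chinese wild boar thus had the most, Enshi black an intermediate level and Large White the least, and no 2 of these intervals overlapped. Over Large White, VIL1 was 5.56-fold higher in Enshi black (4.59 to 6.77) and 23.8-fold higher in Chinese wild boar (19.9 to 28.7). In Enshi black it was 4.28-fold lower than in Chinese wild boar (3.95 to 4.64). VIL1 was chosen on these contrasts, so nothing is read from the share that follows. In these directions 8 expressed IDs, or 0.0605%, passed all 3 comparisons, VIL1 included. The others with a symbol, named after their values were seen, were MFSD2A, a transporter of lysophosphatidylcholine carrying omega-3 fatty acids, and the peroxidase LPO. MFSD2A had 93.4 CPM in Enshi black, 478 in Chinese wild boar and 35.7 in Large White.

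ELF3 had the opposite order. It was counted 344 times in Enshi black, 79 times in Chinese wild boar and 1765 times in Large White, or 15.9 CPM (14.3 to 17.7), 3.99 CPM (3.2 to 5.0) and 90.3 CPM (86.2 to 94.6). Large White had the most and Chinese wild boar the least, again with no overlap. Relative to Large White, ELF3 was 5.67-fold lower in Enshi black (5.05 to 6.38) and 22.6-fold lower in Chinese wild boar (18.1 to 28.7). In Enshi black it was 3.99-fold higher than in Chinese wild boar (3.12 to 5.17). ELF3 too was chosen on these contrasts, so nothing is read from the next share. With ELF3, 10 expressed IDs (0.0756%) passed all 3 comparisons in these directions. Those with a symbol, named after their values were seen, included BSPH1, LPAR2, IRF1 and TENM4. IRF1, an interferon-responsive transcription factor, had 62.1 CPM in Enshi black, 27.5 in Chinese wild boar and 134 in Large White, though its call for Enshi black over Large White did not hold under every scaling tried.

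SLC34A2 had no count in Enshi black, no count in Chinese wild boar and 64 counts in Large White, the last being 3.28 CPM (2.52 to 4.18). Relative to Large White it was at least 23.6-fold lower in Enshi black and at least 21.6-fold lower in Chinese wild boar, taking 3 counts as the floor in each library and leaving aside the counting error of the 64 counts. With that error included, the interval bounds nearest to 1 were 18.6 and 17.1. Between Enshi black and Chinese wild boar no fold can be given. A low level in those livers would not have been detectable at this depth.

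SPINK5 was low in every library. It had 59 counts in Enshi black, 1 count in Chinese wild boar and 46 counts in Large White, or 2.73 CPM (2.08 to 3.53), 0.0505 CPM (0.00128 to 0.282) and 2.35 CPM (1.72 to 3.14). The single read in Chinese wild boar lies below the floor of 0.152 CPM, while the intervals of Enshi black and Large White overlapped. The ratio of Enshi black to Large White was 1.16 (0.776 to 1.75). SPINK5 was lower in Chinese wild boar than in Large White at a ratio of 46.6 (7.95 to 1879), and higher in Enshi black than in Chinese wild boar at a ratio of 54.1 (9.34 to 2172). The single read sets the width of both intervals, so the ratios themselves are imprecise.

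SPP1 differed least. It had 468 counts in Enshi black, 178 in Chinese wild boar and 367 in Large White, or 21.7 CPM (19.8 to 23.7), 9.0 CPM (7.72 to 10.4) and 18.8 CPM (16.9 to 20.8). Chinese wild boar was low, and the intervals of Enshi black and Large White overlapped. The fold of Enshi black over Large White was 1.15 (1.0 to 1.33). In Chinese wild boar SPP1 was 2.09-fold lower than in Large White (1.74 to 2.51), which did not pass, and in Enshi black it was 2.41-fold higher than in Chinese wild boar (2.02 to 2.88), which lay just inside the size rule.

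**Figure D2:**
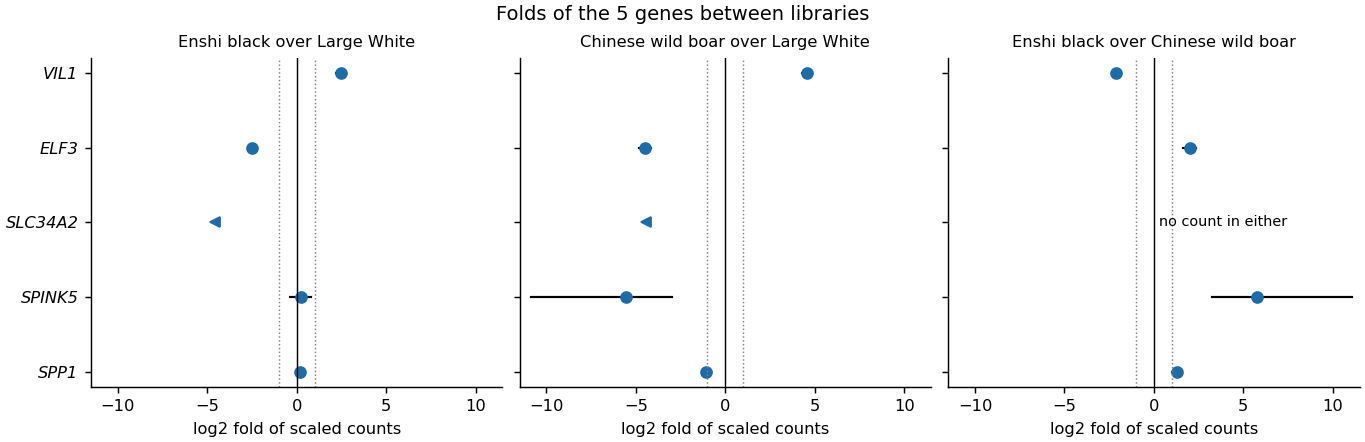
Log2 fold of scaled counts (horizontal axis) for the 5 genes in the 3 comparisons; points are folds, lines their 95% exact conditional binomial intervals, left-pointing triangles folds against a floor of 3 counts, and dotted lines mark 2-fold. VIL1 lies right of 0 in both comparisons with Large White and ELF3 left of 0, while SPINK5 and SPP1 lie near 0 between Enshi black and Large White.

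Markers of the cells that could carry these genes were examined next. List counts here and below are to be read beside the shares of all expressed genes that passed. These were 4.69% higher and 8.39% lower for Enshi black over Large White, and 2.96% and 3.74% for Chinese wild boar over Large White. For Enshi black over Chinese wild boar they were 4.03% and 7.1%. In bulk tissue, fewer cells of a type and less RNA per cell cannot be told apart. Of 23 listed cholangiocyte markers 15 had a matched ID and 13 were expressed. None passed as higher in any comparison, and 1 passed as lower for Enshi black over Large White, 2 for Chinese wild boar over Large White and 1 for Enshi black over Chinese wild boar. The median log2 folds were -0.14, 0.11 and -0.08, against 0.01, 0.0011 and 0.0095 over all expressed genes. The keratins KRT7 and KRT19 had no matched ID and were not analysed here.

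Defining cholangiocyte markers with a matched ID were detected in all 3 livers. The stem and duct marker PROM1 had 8.02 CPM in Enshi black, 8.49 in Chinese wild boar and 8.85 in Large White. The chloride channel CFTR had 1.62, 2.68 and 1.69 CPM, the adhesion protein EPCAM 1.62, 2.73 and 2.41 CPM, and the transcription factor SOX9 4.22, 2.58 and 3.38 CPM. None of these passed the size rule. The 15 cholangiocyte markers with a matched ID summed to 381 CPM in Enshi black, 462 in Chinese wild boar and 498 in Large White. Most of each sum came from CLDN4 (208, 244 and 223 CPM) and SLC4A2 (105, 154 and 143 CPM). DEFB1 added 13.3, 6.01 and 76.7 CPM, so it weighs on the order of the sums. For Chinese wild boar over Large White, 2 of the 13 cholangiocyte markers passed, beside 6.7% of all expressed genes, so nothing particular to the list is read from its counts.

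Among the markers that passed was DEFB1, the epithelial beta-defensin, which had the same order as ELF3. It had 13.3 CPM in Enshi black, 6.01 in Chinese wild boar and 76.7 in Large White, which relative to Large White was 5.74-fold lower in Enshi black (5.06 to 6.54) and 12.7-fold lower in Chinese wild boar (10.6 to 15.5). The matrix protease MMP7 was 3.04-fold lower in Chinese wild boar than in Large White (2.08 to 4.53), at 1.87 against 5.68 CPM.

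**Figure D3:**
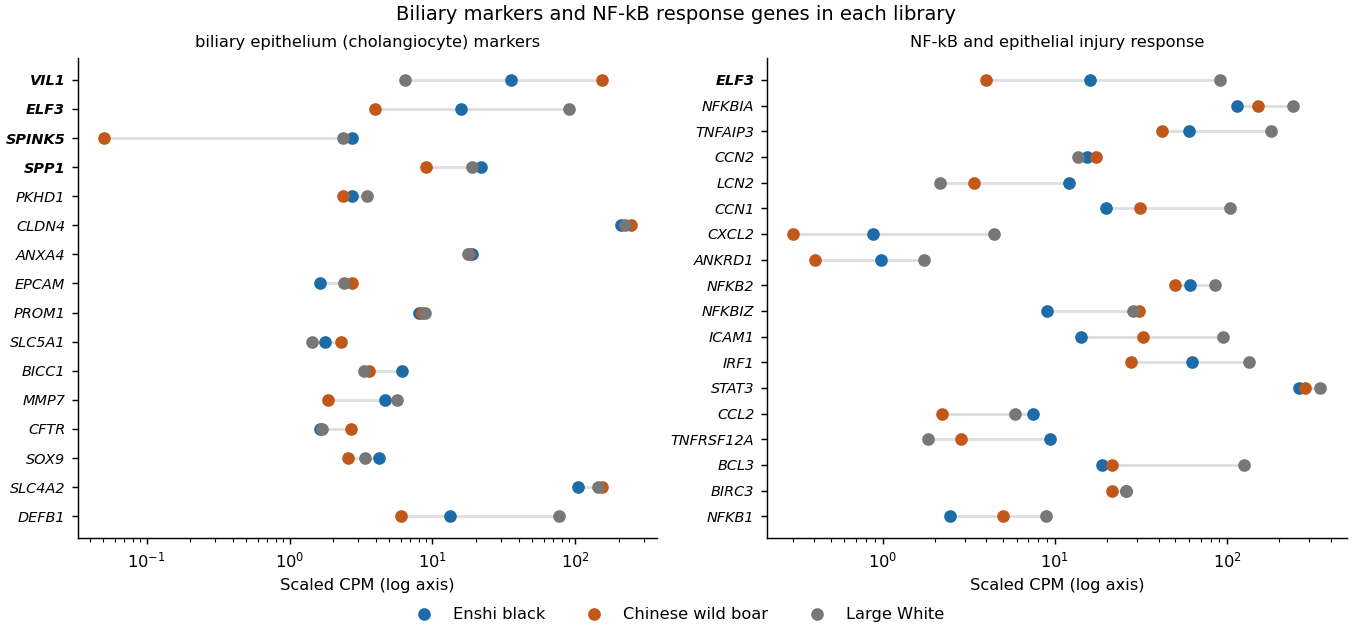
Scaled CPM (horizontal log axis) of VIL1, ELF3, SPINK5 and SPP1 with expressed cholangiocyte markers (left) and of ELF3 with NF-kB and injury response genes (right) in Enshi black, Chinese wild boar and Large White; each point is 1 library. Most cholangiocyte points lie close together, while DEFB1 is spread wider and follows the order of ELF3. Of 17 response genes 11 are highest in Large White, where 33.1% of all expressed genes are. The response list was chosen with earlier results of these data known, so nothing is read from this count.

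Since inflammatory signals induce ELF3, genes of the NF-kB and epithelial injury response were compared. Of 17 expressed members, 2 passed as higher and 9 as lower for Enshi black over Large White, and none as higher and 6 as lower for Chinese wild boar over Large White. Over all expressed genes the shares were 4.69% and 8.39%, and 2.96% and 3.74%. The list was chosen with earlier results of these data known, so nothing is read from its counts. The median log2 folds were -1.08 and -0.82, against 0.01 and 0.0011 over all expressed genes. Large White had the highest level for 11 of the 17 genes, or 64.7%, where it had the highest level for 33.1% of all expressed genes. BCL3, an NF-kB cofactor, had 18.7 CPM in Enshi black, 21.6 in Chinese wild boar and 125 in Large White. Relative to Large White it was 6.72-fold lower in Enshi black (6.04 to 7.48) and 5.81-fold lower in Chinese wild boar (5.24 to 6.46).

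The adhesion receptor ICAM1 had 14.1 CPM in Enshi black, 32.6 in Chinese wild boar and 94.9 in Large White, and the matricellular protein CCN1 19.7, 31.2 and 103 CPM. The chemokine CXCL2 had 0.880, 0.303 and 4.40 CPM, and the NF-kB inhibitor TNFAIP3 60.2, 41.9 and 180 CPM. For TNFAIP3 and CXCL2, as for ELF3, Chinese wild boar had the lowest level, whereas Enshi black was lowest for ICAM1 and CCN1. The members that passed as higher in Enshi black were LCN2, an iron-scavenging defence protein, with 12.1 CPM in Enshi black, 3.39 in Chinese wild boar and 2.15 in Large White, and TNFRSF12A, the receptor of TWEAK, with 9.41, 2.83 and 1.84 CPM. Between Enshi black and Chinese wild boar the median log2 fold was 0.28, against 0.0095 over all expressed genes. Here 4 members passed as higher in Enshi black and 2 as lower, beside 4.03% and 7.1% of all expressed genes. They included the chemokine CCL2, at 7.41 CPM in Enshi black and 2.22 CPM in Chinese wild boar, and NFKBIZ, another NF-kB cofactor, at 8.94 CPM in Enshi black and 30.8 CPM in Chinese wild boar. The part of these response genes in the ELF3 values was not tested.

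Other ETS and epithelial transcription factors were compared with ELF3. Of 19 expressed, none passed in either direction for Chinese wild boar over Large White, which is near the background of 6.7%, with a median log2 fold of -0.23. The hepatocyte factor HNF4A had 723 CPM in Chinese wild boar and 588 in Large White, and PROX1, a hepatocyte and lymphatic factor, 90.1 and 167 CPM. In the comparison of Enshi black over Large White GRHL3, an epidermal factor, alone passed, with no count in Enshi black and 23 counts in Large White, at least 8.47-fold lower. This fold and the next given for GRHL3 are against the floor of 3 counts and leave aside the counting error of the other library. ETS1, an ETS factor of lymphoid and endothelial cells, was 2.57-fold higher in Enshi black than in Chinese wild boar (2.28 to 2.92), and GRHL3 at least 9.09-fold lower. The medians of these 2 comparisons were -0.06 and 0.19. EHF, another epithelial ETS factor, had 33 counts in Enshi black, 26 in Chinese wild boar and 17 in Large White.

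The relatives of VIL1 and other proteins of microvilli were taken in the same way. Of 31 listed villin relatives and microvillus proteins, 25 were expressed, and none passed as higher and 1 as lower for Chinese wild boar over Large White, near the background of 2.96% and 3.74%. The gene that passed was LCP1, the plastin of leukocytes, at 47.9 CPM in Chinese wild boar and 120 CPM in Large White. Compared with Large White, Enshi black had 2 that passed as higher and 4 as lower, and for Enshi black over Chinese wild boar 4 and 3. The median log2 folds of the 3 comparisons were -0.29 for Enshi black over Large White, -0.25 for Chinese wild boar over Large White and -0.16 for Enshi black over Chinese wild boar.

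Several microvillus genes set Enshi black apart from both other livers. ANKS4B, a scaffold of the adhesion complex between brush border microvilli, had 17 counts in Enshi black, 1147 in Chinese wild boar and 1121 in Large White, and was 72.8-fold lower in Enshi black than in Large White (45.3 to 125). BAIAP2L2, a membrane-bending protein, had 11, 157 and 253 counts, and the actin bundler FSCN1 13, 72 and 121 counts. In the other direction, the actin bundler ESPN had 49 counts in Enshi black, 1 in Chinese wild boar and 4 in Large White. VIL1 followed none of these, since it was intermediate in Enshi black.

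**Figure D4:**
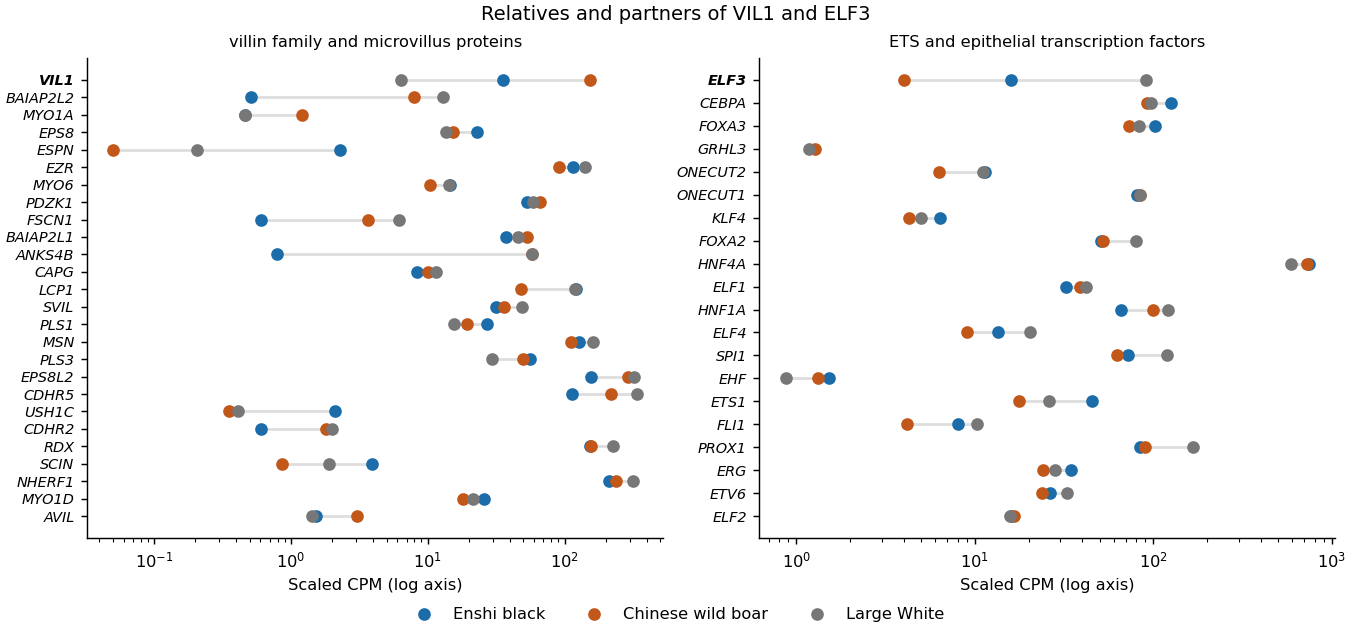
Scaled CPM (horizontal log axis) of VIL1 with the expressed villin relatives and microvillus proteins (left) and of ELF3 with ETS and epithelial transcription factors (right); each point is 1 library, Enshi black, Chinese wild boar or Large White, and a library with no count has no point. VIL1 and ELF3, chosen because they differed between these libraries, spread across more than 20-fold, while most transcription factors on the right lie within a narrow range. Levels of different genes are not compared, since they depend on gene length.

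For SLC34A2, 10 phosphate transport and regulation genes were expressed of 22 listed, while its family members SLC34A1 and SLC34A3 had no matched ID. Relative to Large White, Enshi black had 3 that passed as higher and 1 as lower (median log2 fold 0.23), for Chinese wild boar over Large White 2 and none (0.12), and for Enshi black over Chinese wild boar 1 and none (0.31). Over all expressed genes the shares were 4.69% and 8.39%, 2.96% and 3.74%, and 4.03% and 7.1%. KLB encodes beta-klotho, a coreceptor for endocrine fibroblast growth factors, and had 96.6 CPM in Enshi black, 32.2 in Chinese wild boar and 11.6 in Large White. ENPP1, which makes pyrophosphate outside the cell, had 46.0 CPM in Enshi black, 30.2 in Chinese wild boar and 11.8 in Large White, and the mitochondrial phosphate carrier SLC25A3 had 273, 155 and 102 CPM. CYP27B1, which activates vitamin D, had 8 counts in Enshi black, 24 in Chinese wild boar and 56 in Large White, which was 7.73-fold lower in Enshi black than in Large White (3.67 to 18.8). The phosphate transporters of the plasma membrane with a matched ID did not pass: SLC20A2 had 8.02 CPM in Enshi black, 10.7 in Chinese wild boar and 9.93 in Large White, and the phosphate exporter XPR1 4.73, 3.03 and 2.76 CPM.

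Lung and gut markers, tissues where SLC34A2 is abundant, were near 0 in part. Of 10 lung markers 7 had a matched ID and 3 were expressed. The surfactant gene SFTPC had no count in any library, and SFTPB had no count in Enshi black, none in Chinese wild boar and 1 in Large White. The lung list passed 1 gene as higher for Enshi black over Large White, none for Chinese wild boar over Large White, and 1 as higher and 1 as lower for Enshi black over Chinese wild boar. The collectin SFTPD had 49 counts in Enshi black, 1 in Chinese wild boar and 5 in Large White, and the secretoglobin SCGB1A1 9, 40 and 26 counts. The summed lung list, 62.5 CPM in Enshi black, 125 in Chinese wild boar and 92.5 in Large White, came mostly from the lipid transporter ABCA3. Its median log2 folds were -0.60 for Enshi black over Large White, 0.44 for Chinese wild boar over Large White and -1.04 for Enshi black over Chinese wild boar, over 3 genes.

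Of 18 intestinal markers 9 had a matched ID and 5 were expressed, while the brush border enzyme gene SI and the goblet cell gene TFF3 had no count in any library. CDX2, the homeobox factor of intestinal epithelium, had 20 counts in Enshi black, 94 in Chinese wild boar and 6 in Large White, with Chinese wild boar highest as for VIL1. Its fold of Enshi black over Large White, 3.02 (1.17 to 9.18), did not pass. In Chinese wild boar it was 15.5-fold higher than in Large White (6.85 to 43.2), and in Enshi black it was 5.13-fold lower than in Chinese wild boar (3.14 to 8.77). LGR5, a stem cell receptor of the same list, had 29 counts in Enshi black, 6 in Chinese wild boar and 20 in Large White and did not pass. MUC13, a transmembrane mucin, was higher in Enshi black, at 77.5 CPM, than in Chinese wild boar, at 32.1 CPM, and in Large White, at 34.8 CPM. The list gave 1 higher gene for Enshi black over Large White, 1 for Chinese wild boar over Large White, and 1 higher and 1 lower for Enshi black over Chinese wild boar, with medians of 0.36, -0.11 and -0.91. Its sum was 80.9 CPM in Enshi black, 39.1 in Chinese wild boar and 38.0 in Large White, and came mostly from MUC13.

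For SPINK5, 8 of 32 listed protease inhibitors and proteases were expressed, and most kallikreins had no matched ID. Relative to Large White, Enshi black had none that passed as higher and 2 as lower (median -0.70), for Chinese wild boar over Large White none passed (median -0.34), and for Enshi black over Chinese wild boar none passed as higher and 1 as lower (median -0.40). SPINT1, a Kunitz inhibitor of epithelial serine proteases, had 9 counts in Enshi black, 47 in Chinese wild boar and 83 in Large White, and was 10.19-fold lower in Enshi black than in Large White (5.11 to 23.1). TMPRSS2, a membrane serine protease, was 3.63-fold lower in Enshi black than in Large White (2.85 to 4.67). Among those that did not pass for Chinese wild boar over Large White, HGFAC, the activator of hepatocyte growth factor, had 1425 CPM in Chinese wild boar and 1418 in Large White, and the protease hepsin (HPN) 419 and 535 CPM. With 6.7% of all expressed genes passing in that comparison, a count of none among 8 is near the background.

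Squamous epithelium markers, which mark the tissue where SPINK5 is abundant, were mostly absent. Of 16 listed, 11 had a matched ID and 3 were expressed, and KRT1, IVL, KRT15 and CDSN had no count in any library. TGM3, a transglutaminase of hair and epidermis, had no count in Enshi black, 37 in Chinese wild boar and 315 in Large White. Relative to Large White it was 8.62-fold lower in Chinese wild boar (6.12 to 12.5). In Enshi black it was at least 116-fold lower against the floor of 3 counts, leaving aside the counting error of the 315 counts. It was the 1 gene of the list to pass as lower in each of the 3 comparisons, and none passed as higher. The list medians were -1.59 for Enshi black over Large White, -1.78 for Chinese wild boar over Large White and 0.08 for Enshi black over Chinese wild boar. The sum of the list was 3.34 CPM in Enshi black, 5.71 in Chinese wild boar and 19.8 in Large White. TGM3 gave most of the Large White sum. TP63, named after its values were seen, was alone of the 3 expressed genes in being lowest in Large White. It had 45 counts in Enshi black, 39 in Chinese wild boar and 20 in Large White. Its folds over Large White, 2.04 (1.18 to 3.64) in Enshi black and 1.93 (1.10 to 3.48) in Chinese wild boar, did not pass.

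SPP1 was set beside its relatives, receptors and processing enzymes, of which 16 of 24 were expressed. None passed as higher and 2 as lower for Enshi black over Large White, none as higher and 2 as lower for Chinese wild boar over Large White, and 1 as higher and none as lower for Enshi black over Chinese wild boar. The medians were -0.09, -0.27 and 0.43. The integrin subunit ITGA4, a receptor chain for osteopontin on leukocytes, was 3.06-fold higher in Enshi black than in Chinese wild boar (2.52 to 3.74), at 20.7 against 6.77 CPM, which was the same direction as SPP1. DMP1, a relative of osteopontin in the same gene cluster, was 3.68-fold lower in Enshi black than in Large White (2.90 to 4.71). MMP9, a gelatinase, was 7.59-fold lower in Chinese wild boar than in Large White (2.68 to 29.7), and 4.73-fold lower in Enshi black (2.04 to 12.8), the second of which did not hold under every scaling tried. CD44, the hyaluronan receptor that also binds osteopontin, had 50.5 CPM in Enshi black, 47.1 in Chinese wild boar and 81.9 in Large White.

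Markers of other cell types that can make SPP1 were counted too. Of 9 expressed macrophage markers 1 passed as higher and 3 as lower for Enshi black over Large White, none and 1 for Chinese wild boar over Large White, and 2 and 1 for Enshi black over Chinese wild boar (medians -0.40, -0.996 and -0.29). Over all expressed genes the shares were 4.69% and 8.39%, 2.96% and 3.74%, and 4.03% and 7.1%. The growth factor receptor CSF1R had 15.6 CPM in Enshi black, 55.7 in Chinese wild boar and 111 in Large White. The galectin LGALS3 had 118 counts in Enshi black, 7 in Chinese wild boar and 21 in Large White, and the mannose receptor MRC1 190, 61.9 and 126 CPM, and for these, as for SPP1, Enshi black was highest and Chinese wild boar lowest. The scavenger receptor MARCO had 21.4, 28.9 and 85.1 CPM, and lysozyme (LYZ) 1.16, 3.29 and 7.73 CPM. The macrophage list summed to 1727 CPM in Enshi black, 1820 in Chinese wild boar and 2091 in Large White.

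Of 12 expressed stellate cell and fibroblast markers 6 passed as higher and none as lower for Enshi black over Large White, 2 and none for Chinese wild boar over Large White, and 2 and 1 for Enshi black over Chinese wild boar (medians 1.07, 0.56 and 0.45). The shares of all expressed genes in these comparisons were 4.69% and 8.39%, 2.96% and 3.74%, and 4.03% and 7.1%. COL3A1, a fibrillar collagen, had 837 CPM in Enshi black, 383 in Chinese wild boar and 232 in Large White, and the collagen cross-linking enzyme LOX 13.9, 6.87 and 1.38 CPM. The whole list summed to 1616 CPM in Enshi black, 1064 in Chinese wild boar and 998.6 in Large White. The part of macrophages and fibroblasts in the SPP1 values was not tested.

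Among hepatocyte and general epithelial genes, the folds that passed were smaller than those of VIL1 and of ELF3 in each comparison. VIL1 and ELF3 were chosen because they were known to differ between these libraries, so nothing is read from this ranking. Of 14 expressed hepatocyte markers 2 passed as higher and 1 as lower for Enshi black over Large White, 1 and none for Chinese wild boar over Large White, and 2 and 3 for Enshi black over Chinese wild boar (medians -0.30, -0.0017 and -0.32). The fibrinogen chain FGB was 4.53-fold lower in Enshi black than in Large White (4.44 to 4.62). Of 17 expressed keratin and junction genes none passed as higher and 1 as lower for Enshi black over Large White, 1 and none for Chinese wild boar over Large White, and none and 3 for Enshi black over Chinese wild boar (medians -0.10, 0.19 and -0.23). The desmosomal cadherin DSC2 had 21.5 CPM in Enshi black, 53.3 in Chinese wild boar and 22.3 in Large White, and so was 2.40-fold higher in Chinese wild boar than in Large White (2.14 to 2.68). The tight junction protein TJP3 had 20.5, 55.9 and 48.9 CPM, and its call for Enshi black over Large White did not hold under every scaling tried. The exocrine pancreas list had 1 expressed gene, CPA1, with no count in Enshi black, 28 in Chinese wild boar and 45 in Large White, and PNLIP, the pancreatic lipase gene, had no count in any library. The level of CPA1 was at least 16.6-fold lower in Enshi black than in Large White. This sets 45 counts against the floor of 3 counts and leaves aside their counting error. CPA1 did not pass for Chinese wild boar over Large White. The list summed to 0.324 CPM in Enshi black, 2.43 in Chinese wild boar and 2.92 in Large White.

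A matched ID does not always carry its gene's reads. Apolipoprotein A-I (APOA1), an abundant liver transcript, had 2 counts in Enshi black, 2 in Chinese wild boar and none in Large White. A marker at 0 is therefore a statement on that ID, and the 5 genes have the same limit.

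Genes next to each member on its chromosome were read from the RefSeq gene order of assembly Sscrofa11.1, which is not the build the counts were made on, so no coordinates are given. Up to 5 genes with a matched ID were taken on each side. Around VIL1, 8 of 10 neighbours were expressed, and none passed for Chinese wild boar over Large White or as higher for Enshi black over Large White. RNF25, a ubiquitin ligase, was 7.49-fold lower in Enshi black than in Large White (3.70 to 17.1), and STK36, a kinase of the cilium, 3.90-fold lower (2.24 to 7.13), both against the direction of VIL1. They were also 5.57-fold (2.70 to 13.0) and 4.36-fold (2.54 to 7.92) lower in Enshi black than in Chinese wild boar.

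Around ELF3, 6 of 10 neighbours were expressed, and CSRP1, a muscle and cytoskeleton LIM protein, passed in the direction of ELF3. It had 132 CPM in Enshi black, 148 in Chinese wild boar and 336 in Large White, which was 2.55-fold (2.44 to 2.66) lower in Enshi black and 2.27-fold (2.17 to 2.37) lower in Chinese wild boar than in Large White. Around SLC34A2, 8 of 10 were expressed. PI4K2B, a phosphatidylinositol kinase, was 2.85-fold lower in Enshi black than in Large White (2.08 to 3.94), and SEPSECS, an enzyme of selenocysteine synthesis, 4.10-fold higher in Chinese wild boar than in Large White (2.21 to 8.19). Around SPINK5, 3 of 10 were expressed and none passed in any comparison. SPINK14, SPINK13 and SPINK7 lie next to SPINK5 in that order but had no matched ID, and how the authors' counting split reads among related genes is not known. Around SPP1, 8 of 10 were expressed. In Enshi black over Large White KLHL8 was 3.01-fold higher (2.27 to 4.05), NAP1L5 7.07-fold lower (2.73 to 23.2) and DMP1 lower as given above, while none passed in the other comparisons.

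The genes nearest in pattern were found by the Euclidean distance between pairs of log2 folds over Large White (Enshi black and Chinese wild boar, prior count of 2), among expressed genes with a symbol and over 3 libraries. VIL1 had no gene within a distance of 0.5, and the nearest was the lysosomal channel MCOLN2 at 0.94, followed by the kinase STYK1 at 0.95 and the scaffold CNKSR2 at 1.06. MCOLN2 had 35 counts in Enshi black, 123 in Chinese wild boar and 7 in Large White.

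ELF3 had 2 genes within 0.5, the lysophosphatidic acid receptor LPAR2 at 0.19 and the histamine-degrading oxidase AOC1 at 0.34, with the tubulin-modifying enzyme TTLL8 next at 0.61. LPAR2 had 39 counts in Enshi black, 6 in Chinese wild boar and 186 in Large White, and AOC1 18, 3 and 123 counts. SLC34A2, whose place is set by the prior count since 2 of its libraries had no count, had none, and the nearest was MNS1, a structural protein of cilia and sperm, at 0.91, with 6 counts in Enshi black, 9 in Chinese wild boar and 199 in Large White. LUZP2 followed at 1.45 and PIDD1, a death domain protein of the p53 response, at 1.67.

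SPINK5 had 1 gene within 0.5, the transcriptional repressor ZBTB32 at 0.33, with 71 counts in Enshi black, 1 in Chinese wild boar and 44 in Large White. Next came a liver gene of far higher counts, the paraoxonase PON3 at 0.63. PON3 had 54.8 CPM in Enshi black, 5.10 in Chinese wild boar and 56.2 in Large White. SPP1, by contrast, had 308 genes within 0.5, the nearest being the leukocyte adaptor CYTIP at 0.04, the mitotic motor CENPE at 0.05 and the transporter SLC44A3 at 0.05. These counts follow from the size of each gene's folds, which chose the genes, and nothing is read from them.

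**Figure D5:**
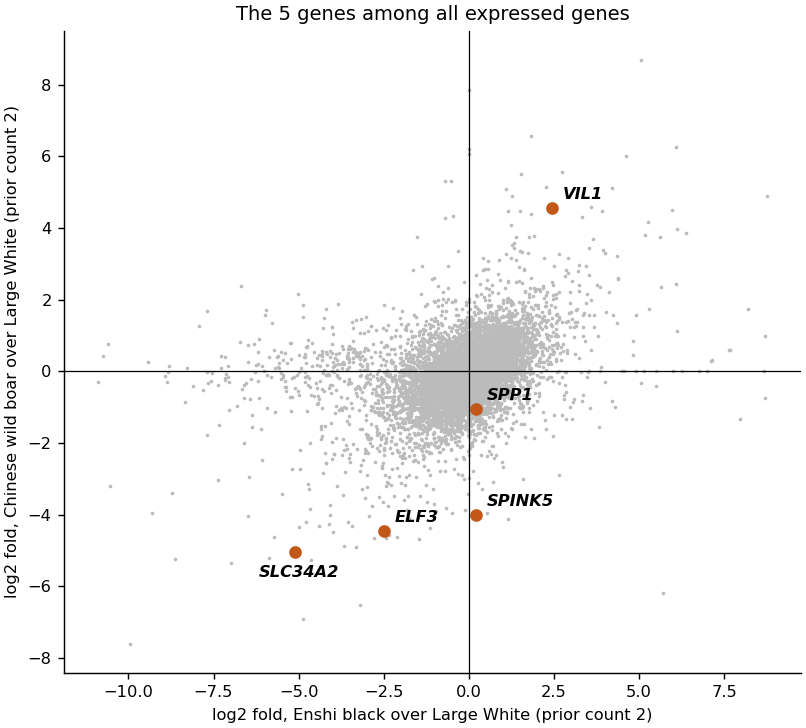
Log2 fold of Enshi black over Large White (horizontal axis) against log2 fold of Chinese wild boar over Large White (vertical axis), both with a prior count of 2, for the 13228 expressed genes (grey) and the 5 epithelial genes (orange). The axes share the Large White library, so no relation is read from the cloud; SPP1 lies inside it, and VIL1, ELF3, SLC34A2 and SPINK5 lie at its edge.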

How the data were processed

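Each deposited file gives whole-number read counts per Ensembl gene ID for 1 library, not normalized, per the file headers. Per the submitters' processing notes, the tools were edgeR 3.16.3, HTSeq 0.6.1 and TopHat2 2.1.0, with the build Sscrofa10.2. Not given in the sources used here are the annotation release, the strand setting and how multiply aligned reads were treated, so near-identical and overlapping genes are uncertain. The 5 rows of each file that name no gene (no feature, 18.9% to 22.0% of reads; ambiguous, 1.89% to 2.49%) stayed out of library sizes and comparisons. Symbols matched 11804 of 25322 IDs.

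Counts were scaled with TMM factors (1.04 for Enshi black, 0.979 for Chinese wild boar and 0.978 for Large White; edgeR 4.0.16, R 4.3.3) over genes with at least 1 CPM of the library total in at least 1 library. With 1 library per breed the quasi-likelihood test could not be fitted and no p-value is given. Python 3.11.15 with scipy 1.17.1, pandas 2.3.3 and numpy 2.4.6 gave the folds and exact intervals, and matplotlib 3.10.9 the figures. The rule on fold size was also tested on simulated data. Medians of log2 folds used a prior count of 2. The labels name no molecular identifiers, so counting error is all that intervals and floors cover.

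The members and the gene lists were chosen with earlier results of these data known. Named genes were all 5 members, up to 4 passing genes per list and comparison by the bound nearest to 1 or, where none passed, up to 2 abundant ones. Markers a statement rests on, the 3 nearest genes in pattern per member and passing neighbours were named too. EHF, CD44, LGR5, SLC20A2 and XPR1, and those said in the text to be so, were named after their values were seen. A few genes taken by this rule are not reported here. No sequence is printed. Alternatives were scaling by total counts or by size factors of DESeq2 1.42.0, an expression filter of 10 CPM or none, a closest bound of 1.5 or of 4 in the size rule, a wider interval of 99.9%, an interval widened by an assumed 0.4 coefficient of variation, and, for list medians, a prior count of 0.5.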

Additional observations from a re-analysis of the deposited data

How the results depend on the processing

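With DESeq2 size factors or total counts, no fold of the 5 genes changed its direction or its side of the size rule. The other alternatives run on these folds left the fold as it was and changed only its interval or the bound asked for. Scaling by total counts put the median gene at 0.10 (log2) in Enshi black over either other library, against 0.01 with TMM. With intervals widened by an assumed 0.4 coefficient of variation, VIL1 (log2 fold 2.46) and ELF3 (-2.50) no longer passed for Enshi black over Large White, nor did VIL1 (-2.09), ELF3 (1.97) and SPP1 (1.26) for Enshi black over Chinese wild boar. SPP1 also did not pass there with the wider interval, nor did VIL1, ELF3 and SPP1 with a closest bound of 4. With a closest bound of 1.5 SPP1 (-1.05) passed for Chinese wild boar over Large White.

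Counts of passing genes moved by more than 1.5 times as follows. For Enshi black over Large White (621 higher, 1110 lower), 549 passed with the assumed variation (133 higher, 416 lower), 3503 with a bound of 1.5 (1531, 1972), 594 with a bound of 4 (150, 444), 990 with a filter of 10 CPM (352, 638), and 406 were higher with the wider interval. For Chinese wild boar over Large White (391, 495) these were 177 (73, 104), 2120 (979, 1141), 201 (87, 114) and 546 (275 lower), and 585 (306 lower) with the wider interval. For Enshi black over Chinese wild boar (533, 939) these were 477 (114, 363), 2976 (1303, 1673), 507 (117, 390) and 820 (276, 544), and 315 were higher with the wider interval. Fewer genes are tested under the 10 CPM filter, which leaves out SLC34A2 and SPINK5. Of the list medians recomputed, 130 moved by at most 0.1 and 5 by more, all 5 with a prior count of 0.5. No paired analysis was possible because each breed has 1 library and the labels give no replicate numbers. Depth limits SLC34A2 and SPINK5, whose levels in some libraries rest on 0 or 1 count.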
